A study of Mus with 3 samples.

Results

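The serpins of T cells described here, among them the granzyme inhibitors, are 8 of the 32285 genes in the deposited count table, namely Serpinb9, Serpinb9b, Serpinb6a, Serpinb6b, Serpinb1a, Serpina3g, Serpina3f and Serpine2. They were chosen by name as serpins of T cells, partly on expression values of these same data, so their levels and genotype differences are given as descriptions. Serpins are protease inhibitors that trap their target by a suicide mechanism, in which the protease cleaves an exposed loop of the inhibitor and stays bound to it. Clade B serpins lack a classical secretion signal and act mostly inside cells. Among them, mouse Serpinb9 inhibits granzyme B, the serine protease that cytotoxic T lymphocytes (CTLs) deliver into target cells. Serpinb9 also protects granzyme-loaded lymphocytes from their own protease. Serpine2 (protease nexin-1) is secreted and inhibits thrombin, urokinase and other trypsin-like proteases.

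Tumors of MC38, a mouse colon adenocarcinoma line, were collected on day 16. The hosts were WT, RARα-KO, where Cre under the distal Lck promoter deletes part of Rara in T cells, or RARα-TG, where the CD2 promoter drives a Rara transgene. Each tumor suspension was labelled with a hashtag antibody (C0301 for WT, C0302 for RARα-KO, C0303 for RARα-TG) in the same stain as the sorting antibodies. Per genotype, 30000 sorted T cells (CD45.2+ CD3+) and 10000 cells of the suspension not selected for T cells were then pooled in 1 library of the 10x 5′ kit with T cell receptor (TCR) amplification. The labels also name spleen and activated naive CD8 T cells, which goes against the tumor protocol in the same labels. Myeloid and MC38 cells lie outside the cells in which these promoters are active. The study's methods give an age range for most of its mice, without naming these tumors, and list both C57BL/6 and dLck-Cre mice as WT strains. Which of them bore the WT tumor, and how many mice stand behind each genotype, is not given in the sources used here.

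With 1 sample per genotype, no test between genotypes was possible. Levels are unique molecular identifiers (UMIs) of a gene relative to a total of 1000000 gene UMIs (CPM), summed over the cells of a class. The 95% intervals, exact Poisson for levels and exact binomial for ratios and shares, cover counting error only. They are too narrow as a measure of differences between mice, or between cells where a few cells hold most UMIs of a gene. Both mutant genotypes are set against the same WT cells, so the 2 comparisons are not independent.

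The 5585 called cells included 1927 WT, 2103 RARα-KO and 895 RARα-TG cells with a single hashtag. The CTL gate (Cd8a detected, Cd4 not detected, in a T cell cluster) held 843 WT, 1178 RARα-KO and 113 RARα-TG cells, with median depths of 5667, 5590 and 4680 UMIs. Regulatory T cells (Tregs; Cd4 and Foxp3 detected, neither Cd8a nor Cd8b1) numbered 120, 79 and 150 in the same order, and CD4 T cells without a Foxp3 UMI 96, 166 and 111. All 11 T cell markers except those the gate excludes were detected in each of these classes and summed to 5493 CPM or more, and the Treg list (Foxp3, Il2ra, Ikzf2, Ctla4) to 3880 CPM or more in Tregs. Another 395 WT, 296 RARα-KO and 411 RARα-TG T cells fell in no gate. An alternative CTL gate that also took cells with Cd8b1 held 931 WT, 1289 RARα-KO and 166 RARα-TG cells. The CTL gate in use spread differently over the T cell clusters in each genotype. The cluster led by Gzmg, Gzmf and Gzmd held 40.1% of WT CTLs, the cluster led by Fxyd7, Ccl5 and Prf1 held 39.6% of RARα-KO CTLs, and the cluster led by S1pr1, Gm45552 and Cd7 held 60.2% of RARα-TG CTLs. The cluster led by Klra7, Klra1 and Tdrp held another 20.4% of RARα-TG CTLs, beside 6.64% of WT and 0.849% of RARα-KO CTLs. The 6 NK cell markers summed to 169 CPM for WT, 130 for RARα-KO and 265 for RARα-TG CTLs, and their part in the RARα-TG values below was not tested. Rara itself stood at 85.3 CPM for WT, 78.5 for RARα-KO and 191 for RARα-TG CTLs. Reads of the 5′ kit can lie outside the deleted part of Rara, so the level in RARα-KO cells checks nothing about the deletion.

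The 5 Serpinb members lie within 1.16 Mb of chromosome 13 (GRCm38, 32842092 to 34002794), Serpina3f and Serpina3g lie within 0.0274 Mb of chromosome 12 (104214544 to 104241939), and Serpine2 lies on chromosome 1 (79794317 to 79858665). Serpinb9 with Serpinb9b, Serpinb6a with Serpinb6b, and Serpina3f with Serpina3g are close relatives, and how reads shared by such genes were divided is uncertain. Of the 8 members, 7 reached 0.1 UMI per CTL in at least 1 genotype. The exception was Serpina3f, with at most 0.0671 UMI per CTL. None of the 54 other serpin genes of the table reached this limit in CTLs. Outside T cells, Serpinh1, a collagen chaperone without inhibitor function, stood at 1076 CPM in MC38 or stromal cells.

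Serpinb9 was detected in most CTLs. Its level was 635 CPM (614 to 656) for WT, 495 (480 to 511) for RARα-KO and 413 (363 to 468) for RARα-TG CTLs, so WT was highest and none of the 3 intervals overlapped. The log2 ratio to WT was -0.36 (-0.42 to -0.29) for RARα-KO and -0.62 (-0.81 to -0.43) for RARα-TG. The share of CTLs with a Serpinb9 UMI was 74.7% for WT, 69.9% for RARα-KO and 61.1% for RARα-TG. After each CTL was thinned to 1000 UMIs, which left out 1, 2 and 2 cells, the shares were 36.9% (33.7 to 40.3), 31.8% (29.1 to 34.5) and 26.1% (18.2 to 35.3).

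Gzmb, the protease that Serpinb9 inhibits, followed another order over the genotypes. It stood at 2879 CPM for WT, 6460 for RARα-KO and 1532 for RARα-TG CTLs. For every 100 Gzmb UMIs, WT CTLs held 22.1 Serpinb9 UMIs (21.3 to 22.9), RARα-KO CTLs 7.66 (7.42 to 7.91) and RARα-TG CTLs 27.0 (23.4 to 31.1). The inhibitor was thus lowest relative to Gzmb transcripts in RARα-KO CTLs, where Gzmb was highest and Serpinb9 was below its WT level.

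Within clusters the RARα-KO to WT ratio of Serpinb9 in CTLs was not uniform. It was -0.80 (-0.96 to -0.64) in the cluster led by Gzmg, Gzmf and Gzmd, -0.54 (-0.71 to -0.36) in the cluster led by Xcl1 and Ifng and -0.32 (-0.52 to -0.13) in the cluster led by S1pr1. It was 0.32 (0.09 to 0.55) in the cluster led by Fxyd7, Ccl5 and Prf1, and 0.07 (-0.12 to 0.27) in a cluster led by histone genes. RARα-TG could be compared only within the cluster led by S1pr1, where Serpinb9 stood at 423 CPM, beside 636 in WT (-0.59, -0.89 to -0.30). In that cluster Serpinb6a (-1.44, -2.74 to -0.34), Serpinb6b (-1.12, -1.63 to -0.63), Serpinb1a (-1.85, -3.23 to -0.70) and Serpina3g (-1.30, -2.18 to -0.52) were also below WT, as they were over all CTLs.

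**Figure D1:**
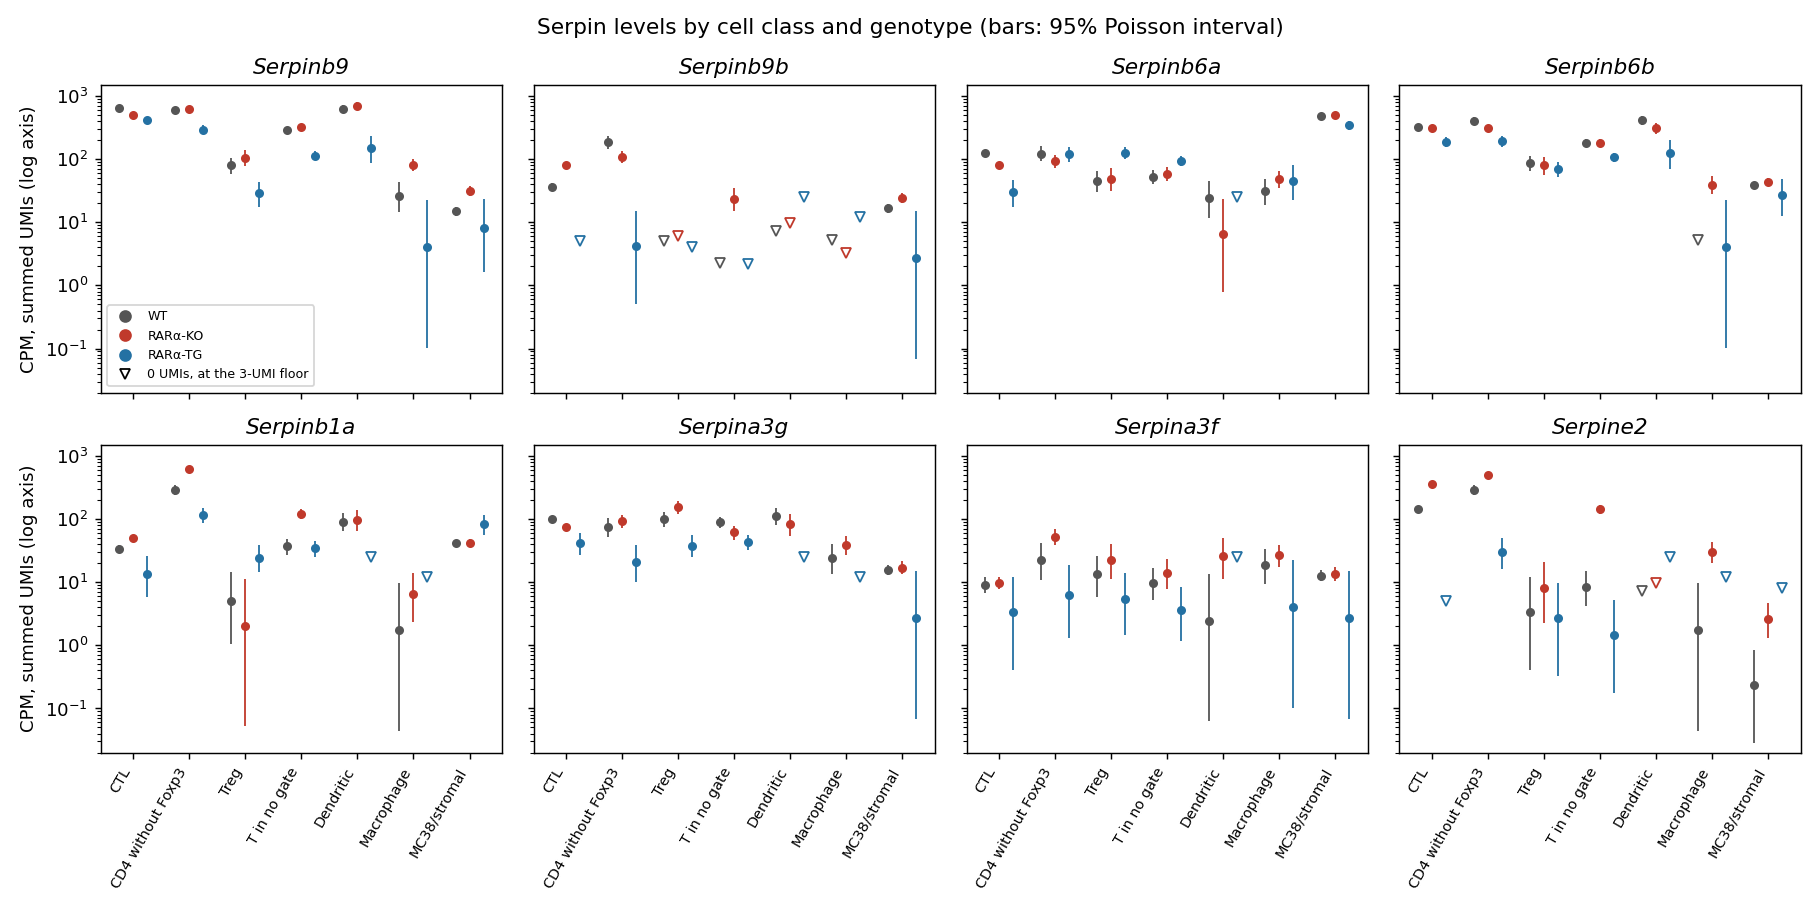
Level of each serpin (CPM of summed UMIs, log axis) in 7 cell classes for WT (grey), RARα-KO (red) and RARα-TG (blue). Points carry 95% Poisson intervals, and open triangles mark 0 UMIs, drawn at the level that 3 UMIs would give. Serpinb9 lies between 413 and 635 CPM in CTLs and between 28.6 and 104 CPM in Tregs.

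Tregs held abundant Gzmb but little Serpinb9. Their Gzmb stood at 3047 CPM for WT, 3964 for RARα-KO and 5026 for RARα-TG, a log2 ratio to the CTLs of the same genotype of 0.08 (0.01 to 0.15), -0.70 (-0.77 to -0.64) and 1.71 (1.61 to 1.82). Their Serpinb9 stood at 80.05 CPM (59.0 to 106), 104 (77.7 to 137) and 28.6 (17.7 to 43.7). For every 100 Gzmb UMIs, Tregs therefore held 2.63 Serpinb9 UMIs for WT (1.93 to 3.50), 2.63 for RARα-KO (1.95 to 3.48) and 0.569 for RARα-TG (0.352 to 0.871). The log2 ratio of Serpinb9 in Tregs to CTLs was -2.99 (-3.43 to -2.58) for WT, -2.25 (-2.67 to -1.85) for RARα-KO and -3.85 (-4.57 to -3.21) for RARα-TG, the same direction in each of the 3 genotypes. Within Tregs, thinned to 2000 UMIs per cell, the 82 WT cells with a Gzmb UMI held 11 Serpinb9 UMIs and the 25 without held 4, a log2 ratio of -0.25 (-2.00 to 1.86) that these few UMIs could not separate from 0. Most RARα-TG Tregs lay in the cluster led by Il22, Pcsk1 and Il10, which held few Tregs of the other genotypes. Over all its cells Serpinb9 was 29.5 CPM, beside 94.2 CPM in the cluster led by Lrrc32 and Foxp3. The part of this subset mix in the RARα-TG Treg values was not tested.

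CD4 T cells without a Foxp3 UMI showed another balance. Their Serpinb9 was 591 CPM (521 to 667) in WT and 628 (577 to 683) in RARα-KO, with Gzmb at 959 and 601 CPM. In RARα-TG, Serpinb9 was 295 CPM (248 to 348) and Gzmb 1621 CPM. The log2 ratio of Serpinb9 to the CTLs of the same genotype was -0.10 (-0.29 to 0.08) for WT, 0.34 (0.21 to 0.47) for RARα-KO and -0.49 (-0.80 to -0.18) for RARα-TG. These cells held 61.6 (52.6 to 72.1), 105 (92.6 to 118) and 18.2 (15.1 to 21.8) Serpinb9 UMIs for every 100 Gzmb UMIs in WT, RARα-KO and RARα-TG. Absence of a Foxp3 UMI does not make a cell Foxp3-negative. The cluster led by Lrrc32 and Foxp3 held 21, 12 and 13 cells of this gate, and the cluster led by Il22, Pcsk1 and Il10 another 21 in RARα-TG, with 0 Serpinb9 UMIs. In the cluster led by Il13, Tnfsf8 and Il5, which gave 40, 98 and 37 cells to the gate, Serpinb9 was 912 CPM for WT, 759 for RARα-KO and 282 for RARα-TG.

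**Figure D2:**
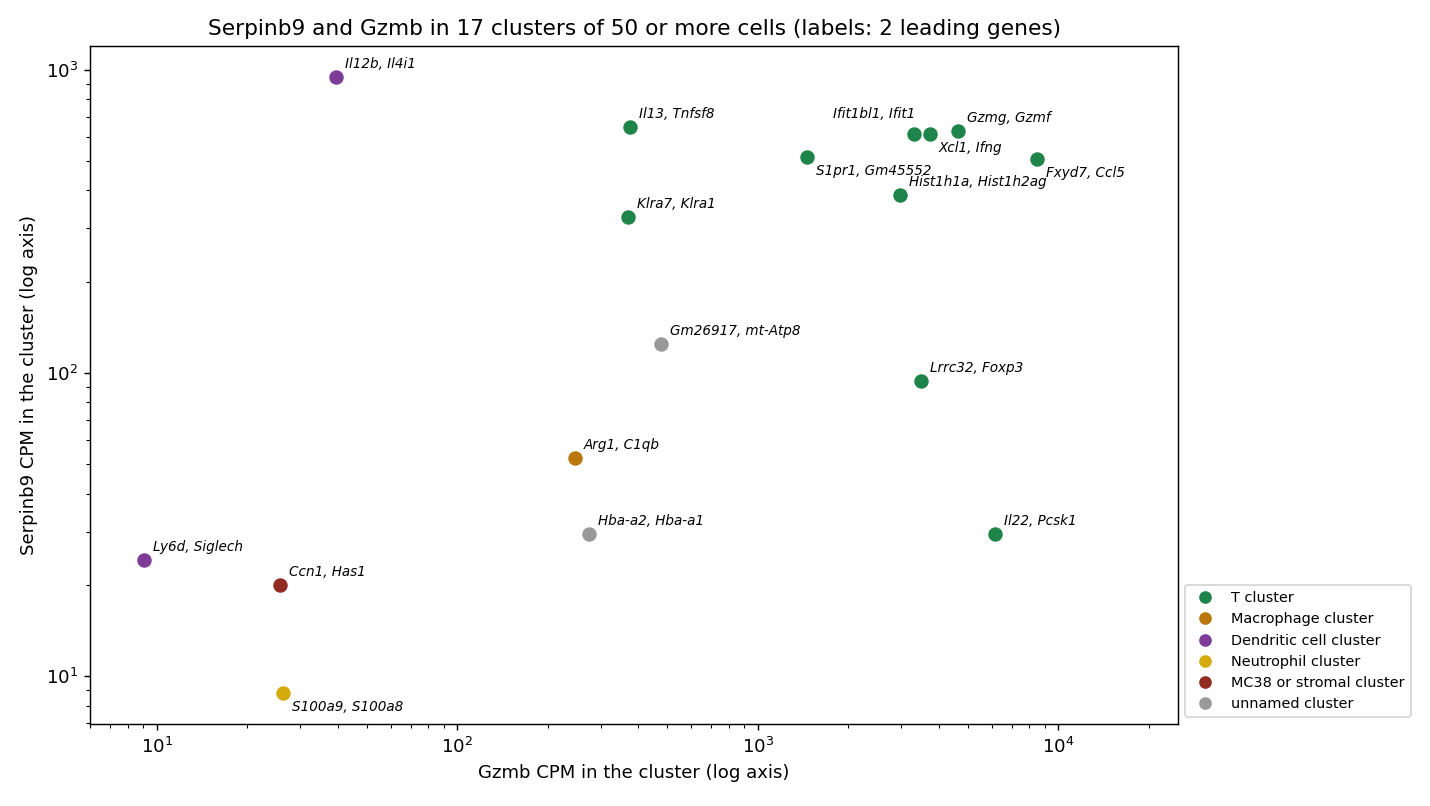
Serpinb9 against Gzmb (CPM, both log axes) in the 17 clusters of 50 or more called cells, summed over cells with a single hashtag of all genotypes. Colors mark the cell class and labels give 2 leading genes. The 2 T cell clusters led by Lrrc32 and Foxp3 and by Il22 and Pcsk1 combine Gzmb above 3000 CPM with Serpinb9 of 94.2 and 29.5 CPM, while the other 8 T cell clusters hold Serpinb9 at 327 CPM or more.

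Clusters were built without the serpins and without Gzmb. Over them, Serpinb9 was 94.2 CPM in the cluster led by Lrrc32 and Foxp3 and 29.5 CPM in the cluster led by Il22, Pcsk1 and Il10, at Gzmb levels of 3495 and 6136 CPM. In the cluster led by Il13 and Tnfsf8 it was 646 CPM at a Gzmb level of 375 CPM. Pearson's r between Serpinb9 and Gzmb, on log2(CPM + 10) over 17 clusters, was 0.50, and clusters differ in depth and in the share of each genotype. The genes most like Serpinb9 among 11673 were Klrk1 (r of 0.92), which encodes the NKG2D receptor, Stat4 (0.91) and Il12rb2 (0.90). Serpinb6b followed Serpinb9 closely over clusters (r of 0.95).

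Dendritic cells held Serpinb9 at 630 CPM (555 to 712) for WT, 692 (603 to 791) for RARα-KO and 148 (87.9 to 234) for RARα-TG. The 2 dendritic clusters differed. The one led by Il12b, Il4i1 and Ccl22, genes of activated dendritic cells, held 949 CPM, and the one led by Ly6d and Siglech, a plasmacytoid dendritic cell marker, 24.1 CPM. The RARα-TG value rests on 17 cells and 18 UMIs, and the part of the subset mix in it was not tested. MC38 or stromal cells were low, at 14.9 CPM (12.5 to 17.7) for WT, 31.2 (26.1 to 37.0) for RARα-KO and 8.01 (1.65 to 23.4) for RARα-TG, although their median depth was 19337 UMIs or more. T cell markers in them summed to 22.8, 89.0 and 216 CPM and Gzmb to 4.28, 58.9 and 147 CPM, and the part of T cell RNA in these values was not tested. Free RNA in empty droplets held Serpinb9 at 218 CPM.

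In macrophages Serpinb9 was 26.0 CPM (14.6 to 42.9) for WT, 81.3 (64.1 to 102) for RARα-KO and 4.06 (0.103 to 22.6) for RARα-TG. Serpine2 showed the same order, with 1 UMI, 28 UMIs and 0 UMIs, and Serpinb6b had 0, 37 and 1. T cell markers in these macrophages summed to 187, 845 and 163 CPM and Gzmb to 22.6, 444 and 20.3 CPM, so T cell transcripts were also highest in RARα-KO. Their part in these serpin values was not tested.

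Among CTLs, 2 of the 7 members tested were at least 2-fold higher in RARα-KO than in WT, against 1.29% of 6602 genes, and 0 of 7 were at least 2-fold lower, against 1.32%. The median log2 ratio of the 7 was -0.06, beside 0.02 over all genes. In RARα-TG CTLs, 0 of 7 were at least 2-fold higher, against 4.65% of 6597 genes, and 5 of 7 at least 2-fold lower, against 5.78%. Of the 5 lower, Serpinb9b, Serpinb1a and Serpine2 passed the limit of 0.1 UMI per CTL only through WT. Their 2-fold differences follow in part from that limit. The count of 5 was 3 after thinning to 1000 UMIs and also 3 with equal weight for each clonotype, where genes with 0 UMIs give no ratio. The median of the 7 was -1.36, beside 0.01 over all genes. Because members were chosen partly on these values, the counts describe the list and test nothing.

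**Figure D3:**
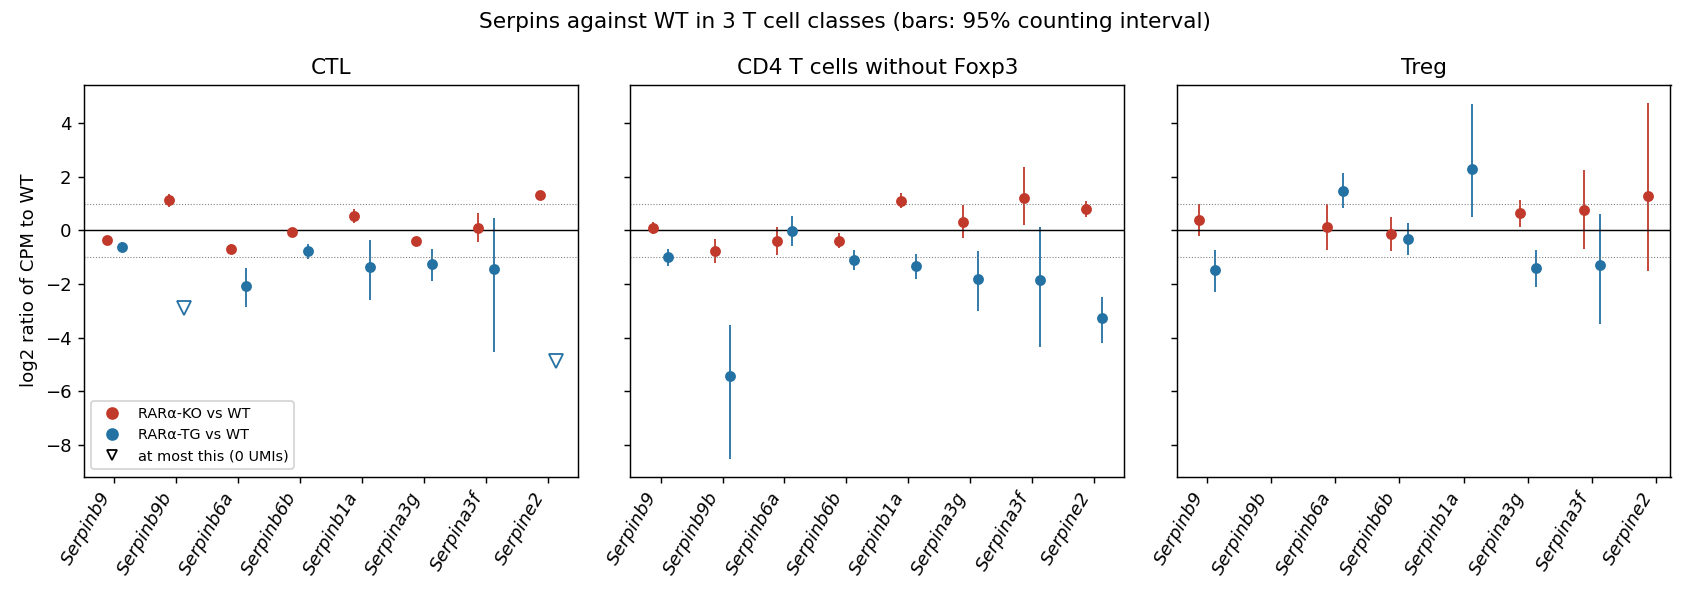
log2 ratio of CPM to WT for RARα-KO (red) and RARα-TG (blue) in CTLs, in CD4 T cells without a Foxp3 UMI and in Tregs. Bars are 95% counting intervals, open triangles are upper bounds where RARα-TG had 0 UMIs, dotted lines mark 2-fold, and ratios with 3 or fewer UMIs in both groups are not drawn. Serpine2 is above WT in RARα-KO CTLs (1.33) and at or below -4.85 in RARα-TG CTLs.

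Serpine2 had the highest RARα-KO to WT ratio of the 8 members in CTLs, with an interval that overlaps that of Serpinb9b, and no UMI in RARα-TG CTLs. CTLs held 808 Serpine2 UMIs for WT (144 CPM, 134 to 154), 2929 for RARα-KO (362 CPM, 349 to 375) and 0 for RARα-TG. The log2 ratio was 1.33 (1.22 to 1.44) for RARα-KO and at or below -4.85 for RARα-TG, a bound that sets the RARα-TG count at 3 UMIs. A UMI was seen in 19.2% of WT and 30.8% of RARα-KO CTLs, and after thinning to 1000 UMIs in 8.55% (6.75 to 10.6) and 14.8% (12.8 to 16.96). In RARα-TG, 0 of 111 thinned CTLs had a UMI. The floor of 3 counts corresponds to 2.70% of cells at this depth, and the exact binomial upper limit was 3.27%. Empty droplets held Serpine2 at 64.8 CPM. Among MC38 or stromal cells, 0.368% of WT and 0.787% of RARα-KO cells had a Serpine2 UMI, at median depths of 30004 and 30701 UMIs. The part of free RNA in the Serpine2 values of CTLs was not tested.

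The UMIs of Serpine2 were concentrated in part of the CTLs. The 5% of WT CTLs with most Serpine2 held 69.3% of its UMIs, with up to 66 in 1 cell, and in RARα-KO the top 5% held 56.7%, with up to 90 in 1 cell. A UMI was seen in 55 of 193 WT and 75 of 170 RARα-KO CTL clonotypes. Among WT CTLs with a clonotype, the clonotype with most Serpine2 (29 cells) held 12.6% of its UMIs, beside 4.98% of all UMIs. In RARα-KO the clonotype with most (114 cells) held 14.2%, beside 16.2% of all UMIs.

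Within clusters, Serpine2 was higher in RARα-KO than in WT CTLs in each of the 5 clusters with 50 or more CTLs of both. The log2 ratio was 3.76 (3.12 to 4.50) in the cluster led by Fxyd7, Ccl5 and Prf1, from 44.7 to 607 CPM. It was 4.25 (2.33 to 7.34) in the cluster led by S1pr1, 2.68 (1.90 to 3.58) in the cluster led by Xcl1 and Ifng, and 0.59 in both the cluster led by Gzmg, Gzmf and Gzmd (0.40 to 0.78) and the histone-led cluster of dividing cells (0.30 to 0.88). Without the cluster led by Fxyd7, Ccl5 and Prf1, the ratio over all other CTLs was 0.40 (0.26 to 0.54), still above WT but below 2-fold. In RARα-TG, the only cluster with enough CTLs was the one led by S1pr1, where WT had 2 UMIs and RARα-TG 0, so no ratio could be given there. Of the 808 Serpine2 UMIs of WT CTLs, 622 came from the cluster led by Gzmg, Gzmf and Gzmd, which held 2 RARα-TG CTLs. The part of the subset mix in the RARα-TG bound was not tested.

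**Figure D4:**
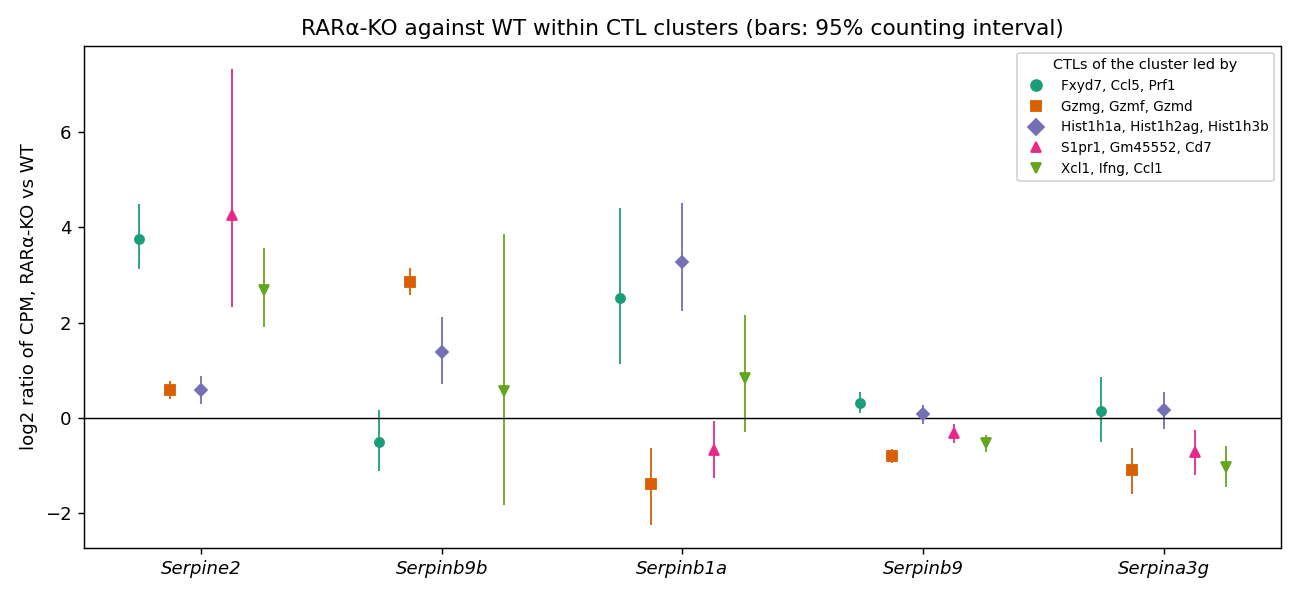
log2 ratio of CPM, RARα-KO to WT, for 5 serpins within each of the 5 clusters with 50 or more CTLs of both genotypes. Symbols mark clusters by leading genes and bars are 95% counting intervals. The 5 Serpine2 ratios lie between 0.59 and 4.25, and those of Serpinb9b, Serpinb1a, Serpinb9 and Serpina3g take both signs.

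CD4 T cells without a Foxp3 UMI also held Serpine2, at 289 CPM (241 to 343) for WT, 502 (456 to 551) for RARα-KO and 29.7 (16.2 to 49.8) for RARα-TG. The log2 ratios to WT were 0.80 (0.51 to 1.09) and -3.28 (-4.19 to -2.48), in the same directions as in CTLs. These values rest on few cells. Of the 580 Serpine2 UMIs of this gate, 257 came from 15 cells of the cluster led by Gzmg, Gzmf and Gzmd (2100 CPM). In the cluster led by Il13, Tnfsf8 and Il5 the order of RARα-KO and WT was opposite, at 478 CPM (388 to 582) for WT, 343 (295 to 396) for RARα-KO and 28.7 (10.5 to 62.5) for RARα-TG. Tregs had 2, 4 and 2 UMIs in the 3 genotypes. Over clusters the genes most like Serpine2 were Slc17a6 (r of 0.92), Rgs16 (0.92), a regulator of G protein signaling, and Galnt3 (0.89). A list of 8 genes held targets of Serpine2 and receptors of Serpine2 or of its targets. Of these, 2 reached 0.1 UMI per CTL in the RARα-KO comparison and 2 in the RARα-TG comparison. None of these was at least 2-fold higher, and 1 (St14, in RARα-TG) was 2-fold lower, against the shares of all genes given above for CTLs (1.29% and 1.32% in RARα-KO, 4.65% and 5.78% in RARα-TG). St14 passed the limit only through WT (94 UMIs, beside 2 in RARα-TG). Its 2-fold difference follows in part from the limit. F2r, the thrombin receptor, was 32.2 CPM in WT, 45.9 in RARα-KO (log2 ratio of 0.51, 0.25 to 0.77) and 39.8 in RARα-TG CTLs (0.30, -0.37 to 0.92). St14, which encodes matriptase, was 16.7, 12.96 and 3.32 CPM, with log2 ratios of -0.37 (-0.78 to 0.05) and -2.34 (-5.40 to -0.44, from 2 UMIs in RARα-TG).

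Serpinb9b, a close relative of Serpinb9, was rare and uneven. It gave 206 UMIs in 23 WT CTLs (36.7 CPM, 31.9 to 42.1), 646 UMIs in 65 RARα-KO CTLs (79.8 CPM, 73.7 to 86.1) and 0 UMIs in RARα-TG CTLs. A UMI was seen in 2.73% of WT and 5.52% of RARα-KO CTLs, with up to 29 and 44 UMIs in 1 cell. The log2 ratio was 1.12 (0.89 to 1.35) for RARα-KO and at or below -2.88 for RARα-TG. Of the 206 WT UMIs, 150 came from the cluster led by Gzmg, Gzmf and Gzmd, which held 2 RARα-TG CTLs. In the cluster led by S1pr1, WT CTLs also had 0 UMIs. The part of the subset mix in the RARα-TG bound was not tested. Without the largest clonotype of each genotype the RARα-KO ratio was 0.96 (0.73 to 1.21), just under 2-fold. Within clusters it was 2.86 (2.59 to 3.14) in the cluster led by Gzmg, Gzmf and Gzmd, from 55.2 to 402 CPM, 1.39 (0.72 to 2.12) in the histone-led cluster and -0.51 (-1.12 to 0.16) in the cluster led by Fxyd7, Ccl5 and Prf1. A gene near Serpinb9b in its pattern over clusters was Gzme (r of 0.81), after Slc17a6 (0.86) and Gldc (0.84).

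Serpinb9b was not detected in Tregs, with 0 UMIs in each genotype. The floor of 3 UMIs corresponds to 6.14 CPM in RARα-KO Tregs, the highest of the 3. In CD4 T cells without a Foxp3 UMI it stood at 184 CPM for WT (146 to 229), 109 for RARα-KO (87.8 to 133) and 4.24 for RARα-TG (0.514 to 15.3), so the RARα-KO value lay below WT there (log2 ratio of -0.76, -1.21 to -0.32), opposite to CTLs. These sums came from 5.21%, 5.42% and 1.80% of the cells. In dendritic cells and macrophages it had 0 UMIs in every genotype.

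Serpinb6b and Serpinb6a are clade B serpins of a family whose members inhibit granule and lysosomal proteases, and mouse Serpinb6b is reported as an inhibitor of granzyme A. Serpinb6b was 322 CPM (307 to 337) for WT, 308 (296 to 320) for RARα-KO and 189 (156 to 227) for RARα-TG CTLs. Its log2 ratio was -0.06 (-0.15 to 0.03) for RARα-KO, an interval that includes 0, and -0.77 (-1.05 to -0.49) for RARα-TG. Within clusters the RARα-KO ratio took both signs. It was 0.60 (0.28 to 0.93) in the cluster led by Fxyd7, Ccl5 and Prf1 and -0.31 (-0.60 to -0.03) in the cluster led by S1pr1. In the cluster led by Gzmg, Gzmf and Gzmd it was -0.27 (-0.46 to -0.08). The intervals included 0 in the cluster led by Xcl1 and Ifng and in the histone-led cluster. Tregs held 86.7, 79.8 and 69.4 CPM, below CTLs in each genotype (log2 ratios of -1.89, -1.95 and -1.45). In CTLs thinned to 2000 UMIs, Serpinb9 was seen in 72.4% of 312 WT cells with a Serpinb6b UMI and in 45.5% of those without. The same shares were 57.8% and 41.6% in RARα-KO and 70.8% and 37.2% in RARα-TG.

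Serpinb6a had a wider distribution. MC38 or stromal cells were highest in every genotype, at 488 CPM (473 to 503) for WT, 503 (482 to 525) for RARα-KO and 342 (285 to 406) for RARα-TG, with a UMI in 94.7% of cells or more. In CTLs it was 127 CPM (118 to 137), 79.6 (73.6 to 86.0) and 29.9 (17.7 to 47.2). The log2 ratio in CTLs was -0.67 (-0.83 to -0.52) for RARα-KO and -2.09 (-2.85 to -1.42) for RARα-TG. Within clusters the RARα-KO ratio was -0.76 (-1.09 to -0.44) in the cluster led by Gzmg, Gzmf and Gzmd. It was -0.85 (-1.28 to -0.41) in the histone-led cluster. Intervals included 0 in the clusters led by S1pr1 (0.08), by Fxyd7, Ccl5 and Prf1 (-0.41) and by Xcl1 and Ifng (-0.34). The part of the subset mix in the ratio over all CTLs was not tested. The 11 MC38 or stromal markers in CTLs summed to 26.5 CPM for WT, 25.3 for RARα-KO and 64.7 for RARα-TG, beside 4204, 3902 and 5650 CPM in MC38 or stromal cells. Serpinb6a in CTLs stood at 26.0%, 15.8% and 8.74% of its MC38 or stromal level, and the part of MC38 or stromal RNA in it was not tested.

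In Tregs the direction for RARα-TG was opposite. Serpinb6a was 45.0 CPM (29.7 to 65.5) for WT, 49.1 (31.5 to 73.1) for RARα-KO and 125 (101 to 154) for RARα-TG Tregs, a log2 ratio of 1.48 (0.84 to 2.15) for RARα-TG. The subsets of the Treg gate differed in this gene. RARα-TG Tregs of the cluster led by Lrrc32 and Foxp3 held 27.0 CPM (5 UMIs), beside 40.1 in WT and 44.5 in RARα-KO, and the 101 RARα-TG Tregs of the cluster led by Il22, Pcsk1 and Il10 held 168 CPM. That cluster held 110 gated Tregs in all, so the high level came with a cluster made almost wholly of RARα-TG cells, and the cluster and the genotype cannot be told apart.

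Serpinb1a, an inhibitor of neutrophil-type serine proteases such as elastase and cathepsin G, was highest in CD4 T cells without a Foxp3 UMI. It stood there at 293 CPM (245 to 348) for WT, 630 (578 to 684) for RARα-KO and 117 (87.9 to 152) for RARα-TG. The log2 ratios were 1.10 (0.82 to 1.39) and -1.33 (-1.81 to -0.86). In the cluster led by Il13, Tnfsf8 and Il5 the gated cells held 512, 878 and 124 CPM, the same order. In CD4 T cells thinned to 2000 UMIs, cells with a Gzmb UMI held less Serpinb1a than cells without (log2 ratio of -2.70, -4.62 to -1.27, in WT and -0.97, -1.75 to -0.27, in RARα-KO), and the part of Treg-like cells among those with Gzmb was not tested.

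In CTLs Serpinb1a was 34.0 CPM (29.4 to 39.2) for WT, 49.8 (45.0 to 54.9) for RARα-KO and 13.3 (5.73 to 26.2) for RARα-TG. Only 7.24%, 9.34% and 4.42% of CTLs had a UMI. The RARα-KO ratio of 0.55 (0.30 to 0.80) was 0.23 (-0.03 to 0.50) without the largest clonotype of each genotype, which held 31.4% of the Serpinb1a UMIs of RARα-KO CTLs with a clonotype. Within clusters it took both signs, from -1.39 (-2.25 to -0.63) in the cluster led by Gzmg, Gzmf and Gzmd to 3.27 (2.24 to 4.51) in the histone-led cluster. Tregs had 3, 1 and 18 UMIs, and the log2 ratio for RARα-TG was 2.29 (0.52 to 4.70) there. Serpinb1a passed the limit of 0.1 UMI per cell in Tregs only through RARα-TG, so its 2-fold difference there follows in part from the limit. Of the 18 RARα-TG UMIs, 14 came from the 43 Tregs of the cluster led by Lrrc32 and Foxp3 (75.7 CPM) and 4 from the cluster led by Il22, Pcsk1 and Il10 (8.29 CPM).

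Serpina3g (Spi2A), a clade A serpin that acts inside cells on lysosomal cathepsins and is known from activated and memory CD8 T cells, was 99.4 CPM (91.3 to 108) for WT, 74.8 (69.0 to 81.0) for RARα-KO and 41.5 (26.8 to 61.2) for RARα-TG CTLs. The log2 ratios were -0.41 (-0.58 to -0.24) and -1.26 (-1.90 to -0.68). Within clusters the RARα-KO ratio was -1.10 (-1.60 to -0.62) in the cluster led by Gzmg, Gzmf and Gzmd. It was -1.03 (-1.46 to -0.59) in the cluster led by Xcl1 and Ifng and -0.72 (-1.21 to -0.25) in that led by S1pr1. In the Fxyd7-led (0.14) and histone-led (0.16) clusters the intervals included 0. Among RARα-KO CTLs with a clonotype, 1 clonotype held 29.6% of Serpina3g UMIs, beside 16.2% of all UMIs. Tregs did not lie below CTLs for this member. They held 100.1 CPM (76.4 to 129) for WT, 156 (123 to 195) for RARα-KO and 38.1 (25.3 to 55.1) for RARα-TG. The cluster led by Il22, Pcsk1 and Il10, with most RARα-TG Tregs, held 41.3 CPM over all its cells. The cluster led by Lrrc32 and Foxp3 held 104 CPM. The part of this subset mix in the RARα-TG Treg value was not tested. The Treg to CTL log2 ratio was 0.01 (-0.40 to 0.40) in WT, 1.06 (0.69 to 1.40) in RARα-KO, and in RARα-TG it was -0.12 (-0.95 to 0.72). Serpina3f was sparse, with 51, 79 and 2 UMIs in WT, RARα-KO and RARα-TG CTLs, and log2 ratios of 0.10 (-0.42 to 0.64) and -1.45 (-4.54 to 0.47), whose intervals include 0.

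In CD4 T cells without a Foxp3 UMI all 8 members passed the limit of 0.1 UMI per cell. There 2 of 8 (Serpinb1a and Serpina3f) were at least 2-fold higher in RARα-KO, against 3.27% of 6152 genes, and 0 of 8 lower, against 4.83%. In RARα-TG, 0 of 8 were at least 2-fold higher, against 4.29% of 5962 genes, and 7 of 8 lower, against 5.95%, Serpinb6a being the exception at -0.02 (-0.58 to 0.54). Of the 7, the interval of Serpina3f included 0 (-1.84, -4.34 to 0.12, from 3 UMIs), and Serpinb9 stood just past the 2-fold limit (-1.003). Serpinb9b, Serpina3f and Serpina3g passed the limit of 0.1 UMI per cell only through WT, with 2, 3 and 10 UMIs in RARα-TG. Their 2-fold differences follow in part from that limit. In Tregs 5 members passed in each comparison. Serpinb9, Serpinb6a, Serpinb6b and Serpina3g passed in both, Serpina3f only in the RARα-KO and Serpinb1a only in the RARα-TG comparison. In RARα-KO Tregs 0 were 2-fold higher and 0 lower, against 4.73% and 4.43% of 6572 genes. In RARα-TG Tregs 2 were higher (Serpinb6a and Serpinb1a), against 4.84% of 6305 genes, and 2 lower (Serpinb9 and Serpina3g), against 3.98%. Serpinb1a passed there only through RARα-TG (18 UMIs, beside 3 in WT), so its 2-fold difference follows in part from the limit. Most RARα-TG Tregs lay in the cluster led by Il22, Pcsk1 and Il10. Over all its cells it held Serpinb9 at 29.5 and Serpina3g at 41.3 CPM. The cluster led by Lrrc32 and Foxp3 held 94.2 and 104 CPM. The part of this subset mix in the 2 lower values was not tested.

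The relation to Gzmb in single CTLs was measured after thinning each cell to 2000 UMIs, which left 828 WT, 1153 RARα-KO and 110 RARα-TG CTLs. In WT Serpinb9 was 555 CPM (498 to 617) in CTLs with 0 Gzmb UMIs, 692 (625 to 764) with 1 to 4, 763 (675 to 860) with 5 to 14 and 709 (566 to 878) with 15 or more. In RARα-KO the 4 bins held 461, 451, 518 and 516 CPM, with overlapping intervals. In WT the bins with 0 and with 5 to 14 Gzmb UMIs did not overlap. The log2 ratio of the top to the bottom bin was 0.35 (-0.01 to 0.70) in WT and 0.16 (-0.10 to 0.42) in RARα-KO, and Spearman's rho over cells was 0.09 and 0.03, too weak in such sparse counts to be a finding. The WT top to bottom ratio was 0.72 (0.22 to 1.20) without the cluster led by Gzmg, Gzmf and Gzmd and 0.47 (0.10 to 0.82) without the cluster led by Fxyd7, Ccl5 and Prf1, intervals that lie above 0. In RARα-KO the same ratios were 0.22 (-0.05 to 0.48) and 0.25 (-0.13 to 0.61). Within each Gzmb bin, RARα-KO CTLs held less Serpinb9 than WT CTLs with log2 ratios of -0.27 (-0.52 to -0.02), -0.62 (-0.84 to -0.40), -0.56 (-0.80 to -0.31) and -0.46 (-0.82 to -0.09) from the lowest to the highest bin. The cells of a bin differed in kind, since in the highest bin 57 of 60 WT but 99 of 279 RARα-KO CTLs lay outside the cluster led by Fxyd7, Ccl5 and Prf1.

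**Figure D5:**
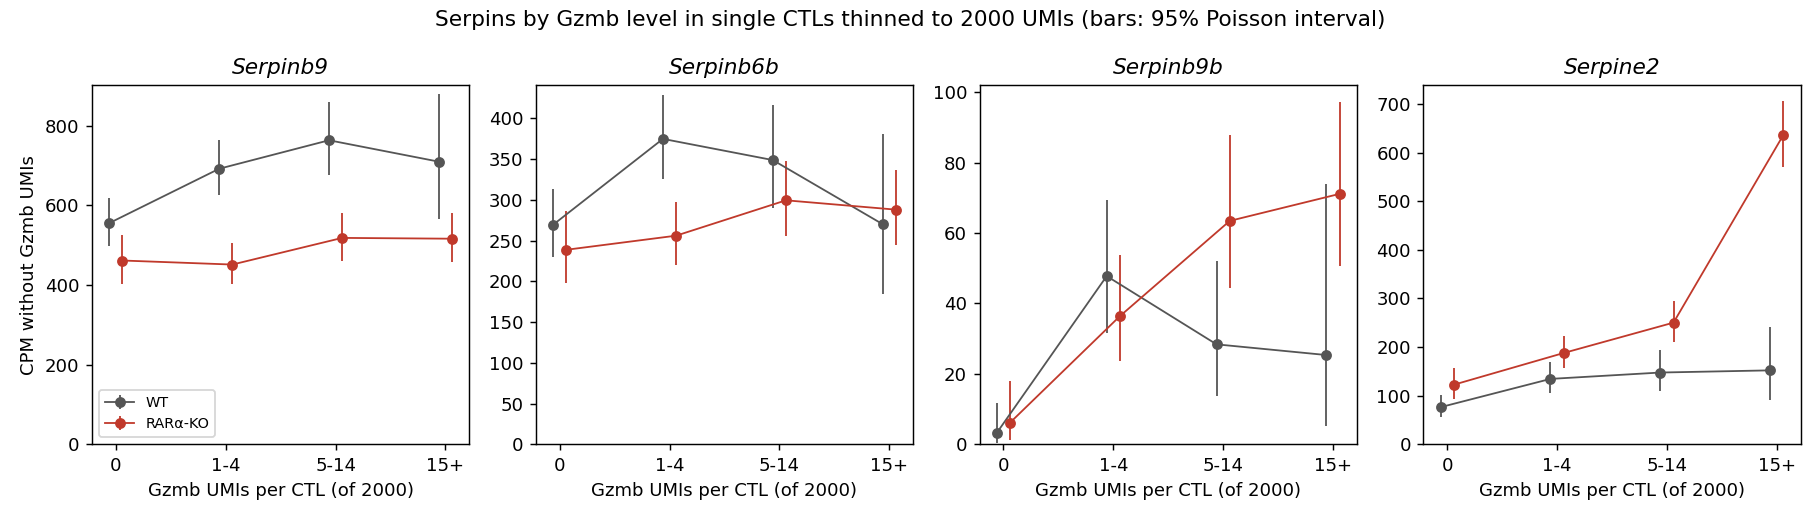
Level of 4 serpins (CPM of all UMIs except Gzmb) in WT (grey) and RARα-KO (red) CTLs thinned to 2000 UMIs, by the number of Gzmb UMIs per cell, with 95% Poisson intervals. Serpine2 in RARα-KO goes from 122 to 636 CPM over the bins, while Serpinb9 stays between 451 and 518 CPM.

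In RARα-KO, Serpine2 varied more with Gzmb than Serpinb9 did. It was 122 CPM (93.4 to 158), 188 (157 to 223), 250.2 (211 to 295) and 636 (571 to 707) over the 4 bins, a top to bottom log2 ratio of 2.38 (1.98 to 2.80). In WT the 4 bins held 76.3, 134, 148 and 152 CPM, a ratio of 0.99 (0.12 to 1.81), which overlaps that of Serpinb9. Spearman's rho over cells, as a description of these thinned cells, was 0.25 in RARα-KO and 0.06 in WT. Summed over genotypes, the cluster led by Fxyd7, Ccl5 and Prf1 had the highest Gzmb and Serpine2 of all clusters (8502 and 523 CPM). Its WT CTLs held 2528 and 44.7 CPM, below the 3207 and 229 CPM of WT CTLs in the cluster led by Gzmg, Gzmf and Gzmd. Without the cluster led by Fxyd7, Ccl5 and Prf1 the RARα-KO ratio was 2.35 (1.73 to 3.01) and the WT ratio 0.98 (0.10 to 1.79). Without the cluster led by Gzmg, Gzmf and Gzmd the RARα-KO ratio was 2.57 (2.14 to 3.04). In WT, CTLs outside that last cluster held 1 Serpine2 UMI in the top bin and 11 in the bottom bin (-0.50, -5.93 to 2.28), so the WT ratio rested on it.

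Few Serpinb9b UMIs came from CTLs without Gzmb. Of its UMIs in thinned CTLs, 2 of 42 in WT and 3 of 103 in RARα-KO came from cells with 0 Gzmb UMIs, although these made up 308 of 828 and 245 of 1153 cells. The top to bottom log2 ratio in RARα-KO was 3.54 (1.88 to 5.88), from 39 and 3 UMIs. Serpina3g had a ratio of 1.11 (0.20 to 1.96) in WT and -0.33 (-1.07 to 0.40) in RARα-KO. For Serpinb6a, Serpinb6b, Serpinb1a and Serpina3f the intervals included 0 in both genotypes where a ratio could be given. RARα-TG had 5 CTLs in the top bin, too few for any statement.

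Clonal expansion was read from the TCR table. CTLs of clonotypes with 10 or more cells (467 in WT from 19 clonotypes, 680 in RARα-KO from 24) were set against CTLs whose clonotype had 1 cell (122 and 94). Gzmb was higher in large clonotypes, by 1.40 (1.30 to 1.50) on the log2 scale in WT and 1.03 (0.96 to 1.10) in RARα-KO. Serpinb9 differed by 0.43 (0.26 to 0.60) in WT, from 490 to 658 CPM, and by 0.05 (-0.13 to 0.24) in RARα-KO. Serpine2 was higher in large clonotypes in WT (1.34, 0.87 to 1.84) and lower in RARα-KO (-0.29, -0.50 to -0.07), where CTLs of single-cell clonotypes already held 381 CPM, beside 60.5 CPM in WT. Serpinb6a was higher in large clonotypes in WT (1.20, 0.73 to 1.71), and its ratio in RARα-KO was 0.24 (-0.27 to 0.78). Serpina3g was higher in WT (0.52, 0.07 to 1.01) and lower in RARα-KO (-0.70, -1.07 to -0.30). Serpinb9b was higher in both (0.80, 0.07 to 1.62, and 1.15, 0.47 to 1.92). Serpinb1a was lower in WT (-1.07, -1.82 to -0.28), with 0.47 (-0.19 to 1.20) in RARα-KO. For Serpinb6b and Serpina3f the intervals included 0 in both. RARα-TG had no CTL in a clonotype of this size and 81 CTLs in single-cell clonotypes. The difference between genotypes in these ratios was not tested.

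Other genes of the pathway were counted from lists. Of 13 granule proteases and cargo genes, 12 passed the limit of 0.1 UMI per CTL. The background for the counts of these lists is that of all genes in CTLs, where 1.29% were at least 2-fold higher and 1.32% lower in RARα-KO, and 4.65% and 5.78% in RARα-TG. In RARα-KO 3 were at least 2-fold higher (Gzmk at 1.79, Gzmg at 1.58 and Gzmb at 1.17 on the log2 scale) and 3 lower (Gzme at -1.86, Gzmf at -1.31 and Gzmc at -1.03). In RARα-TG 1 was higher (Gzmc at 2.08) and 5 were lower, with Gzmd at -7.01 (-10.06 to -5.16, from 2 UMIs in RARα-TG), Gzme at -6.48 (-8.76 to -4.93, from 3 UMIs) and Gzmf at -3.62 (-3.90 to -3.34). Gzmd and Gzme passed the limit only through WT, so their 2-fold differences follow in part from it. The median log2 ratio of the granule genes was 0.27 in RARα-KO and -0.79 in RARα-TG. Of 12 cathepsins and cystatins, 10 passed in the RARα-KO comparison with none past 2-fold, and Ctsw, a cathepsin of cytotoxic lymphocytes, was lowest at -0.58 (-0.65 to -0.52). In RARα-TG 11 passed, with Ctsl 2-fold higher (2.48, 1.55 to 3.37, from 18 UMIs) and Cst7, which encodes cystatin F, an inhibitor of granzyme-activating cathepsins, 2-fold lower (-1.28, -1.61 to -0.96). Ctsl, with 30 UMIs in WT CTLs, passed the limit only through RARα-TG. Its 2-fold difference follows in part from the limit. The medians of the cathepsins and cystatins were 0.01 and -0.31. Of 12 interferon genes, which bear on the interferon-inducible Serpina3 genes, 11 passed, and 1 was 2-fold higher in RARα-KO (Gbp2, 1.01) and 1 in RARα-TG (Irf7, 1.03), with none lower and medians of 0.38 and 0.16.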

How the data were processed

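Per the labels, the authors processed the reads with Cell Ranger 6.1.0 against mm10 (GRCm38); the header of the deposited matrix names a different major version, and which of them made the counts is uncertain. The authors deposited raw UMI counts per gene, hashtag and barcode for 730308 barcodes, and a table of TCR contigs. No values were normalized by them.

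Cells were called anew with the steps of Cell Ranger in Python 3.11.15 with scipy 1.17.1, numpy 2.4.6 and pandas 2.3.3. The first step gave 2433 barcodes and a test against empty droplets added 3152 of 3167 with 500 or more UMIs, at a false discovery rate of 0.01. The 5585 cells held 96.4% of gene UMIs. Hashtags were called with HTODemux of Seurat 5.3.0 (R 4.3.3, quantile 0.99). Cells with several hashtags (426) or none (234) were left out, and no caller of doublets within a genotype was run. Clusters were made with scanpy 1.11.5 (Leiden, resolution 1, 30 principal components, 2000 variable genes without serpins, Gzmb and TCR segments). A cluster with a clonotype in over 50% of barcodes was a T cell cluster. The interval and cell calling steps were tested on simulated data. A ratio against 0 UMIs was bounded with 3 UMIs, and none was given where both groups had 3 UMIs or fewer.

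Members and gene lists were chosen with earlier results of these data known. Named genes were the 8 members, the 3 highest and 3 lowest genes of each list by CTL ratio with 20 or more UMIs in 1 genotype, of which those that mattered are printed, and the 3 genes most like each member. Serpinh1 was named after its values were seen. Alternatives were thinning, other gates, cell and hashtag limits, equal weight per clonotype and leaving out clusters or clonotypes. Requiring 80% or more of the hashtag counts from 1 hashtag left 545 WT, 1203 RARα-KO and 112 RARα-TG CTLs. The main setting had 843, 1178 and 113, so the WT set depended most on the hashtag limit. Gene coordinates come from RefSeq GRCm38.p6.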

Additional observations from a re-analysis of the deposited data

Results flagged for a closer look

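Serpinb6a and Serpinb1a lay on opposite sides of WT in the Tregs and the CTLs of RARα-TG, with intervals that did not include 0. Serpinb6a had a log2 ratio of 1.48 in Tregs and -2.09 in CTLs. The high level in Tregs came with the cluster led by Il22, Pcsk1 and Il10 (101 RARα-TG Tregs, 168 CPM), while in the cluster led by Lrrc32 and Foxp3 it was 27.0 CPM for RARα-TG and 40.1 for WT. Serpinb1a had a log2 ratio of 2.29 in Tregs, from 3 UMIs in WT and 18 in RARα-TG, where it passed the limit of 0.1 UMI per cell only through RARα-TG, and -1.36 in CTLs. The difference between the classes was not tested, since each genotype was 1 sample.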

How the results depend on the processing

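The count of serpins at least 2-fold lower in RARα-TG than in WT CTLs was 5 of 7, and 3 both after thinning to 1000 UMIs and with equal weight for each clonotype, and it was 4 or 5 under the other alternatives. Equal weighting gives no ratio for genes with 0 UMIs. The count at least 2-fold higher in RARα-KO CTLs was 2, and 1 without the largest clonotype of each genotype (Serpinb9b dropped out) and 1 without the cluster led by Fxyd7, Ccl5 and Prf1 (Serpine2 dropped out); both of these alternatives were chosen after seeing the data. After thinning to 1000 UMIs, the RARα-KO to WT ratio changed sign for Serpinb6b in CD4 T cells without a Foxp3 UMI (0.25) and for Serpinb9 in MC38 or stromal cells (-0.30), and the Serpine2 ratio of WT CTLs with 15 or more to those with 0 Gzmb UMIs changed sign without the cluster led by Gzmg, Gzmf and Gzmd (-0.50); these 3 intervals include 0. Of the other values for single genes, 299 stayed within their counting interval and 61 moved outside it. The cause was not tested. No paired analysis was possible because each genotype was 1 sample.

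With 113 RARα-TG CTLs and 602657 gene UMIs in them, the floor of 3 UMIs corresponds to 4.98 CPM. Differences between mice were not measured.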
